A study of Mus musculus with 8 samples.

Results

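The proteasome subunit genes were followed in the livers of 8 male mice, 6 weeks of age, each measured on 1 Affymetrix mouse array. The members were all genes whose platform symbol begins with Psma, Psmb, Psmc, Psmd or Psme and a digit, without the inducible Psmb8, Psmb9 and Psmb10. This gave 41 of the 19560 genes measured, covered by 438 probe sets. One of them, Psmc3ip, only shares the letters: it encodes a partner of meiotic recombinases and no subunit, so 40 members belong to the proteasome and its helpers. Each gene value is the median over the probe sets that carry its symbol alone, as a log2 intensity normalised with RMA. Every mouse lacked the kinase TAK1 in liver parenchymal cells (LPC). In 4 mice caspase 8 was deleted in LPC as well (Tak1/Casp8), and the other 4 carried Rip3-/- in addition to the Tak1 deletion (Tak1/Rip3). The sources used here do not give the Cre driver of the LPC deletions. Cells other than LPC keep Tak1 and caspase 8, and no liver with intact TAK1 enters the comparison. A difference is always Tak1/Casp8 minus Tak1/Rip3, and without such a liver it does not say which genotype departs from normal.

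The proteasome is the barrel-shaped protease that degrades proteins tagged with ubiquitin. Its core particle is built of outer rings of alpha subunits, which gate the entrance, around inner rings of beta subunits, which hold the cutting sites. The regulatory particle caps the barrel: its base holds the ATPases that unfold the substrate, and its lid removes the ubiquitin chain. In hepatocytes, which make and secrete proteins in bulk, this machinery is abundant, and it also degrades the inhibitor that holds NF-kB in the cytoplasm, a step downstream of TAK1.

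The arrays were comparable in depth of signal. Their medians over probe sets lay between 8.06 and 8.16, and the correlation with the own group was lowest for Tak1/Casp8 replicate 4 (0.985) and Tak1/Rip3 replicate 2 (0.987). The targeted genes were checked against the labels. In the livers without caspase 8 in LPC, Casp8 lay 2.47-fold below the other group (limma adjusted p = 0.000123) and Ripk3 1.97-fold above it (limma adjusted p = 0.00782, but -0.04 and 0.954 with its brightest probe set), while Map3k7, which encodes TAK1, differed by -0.08 (limma adjusted p = 0.695). Hepatocyte genes were bright everywhere, with Alb between 13.89 and 13.97. The precision of every value is limited by the number of arrays, 4 per group.

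Expression of the proteasome genes differed little between the groups. By limma, 1 of the 41 members passed at an adjusted p under 0.05, Psmd3, which was lower in the Tak1/Casp8 livers. That is 2.44% of the members, against 6.69% of all genes (4.05% lower, 2.64% higher). No member passed with a higher value, and at an unadjusted p under 0.05 there were 6 lower and 1 higher, against 21.1% of all genes (11.8% lower). No member differed by 1.5-fold or more, a size reached by 5.41% of all genes, and the differences ran from -0.34 to 0.28. For 39 of the 41 the 95% interval lay wholly within 1.5-fold in either direction, the exceptions being Psma5 and Psmb11. The median size of the difference, regardless of sign, was 0.11 in the members and 0.14 in all genes.

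The small differences leaned to one side. Of the 41 members 33 had a lower mean in the Tak1/Casp8 livers, with a median of -0.08, whereas 47.4% of all genes were lower there and their median was 0.01. The groups did not overlap in 6 members (14.6%), which is also the share among all genes (14.6%), and all 6 were lower, against 8.3% of all genes lower and 6.33% higher. The signs of these differences depended on which scaling of the arrays was used. After quantile normalisation 32 of the 41 members were lower, with a median of -0.07, against 0.02 for all genes. With each array shifted to 1 median, 22 of the 41 members were lower, with a median of -0.0070, against 0.08 for all genes. That shift moves the difference of every gene by the same amount, so the members stayed as far below all genes as before. The median log2 difference of core alpha ring genes then turned to 0.02, that of activator caps to 0.02 and that of regulatory lid genes to 0.0046. That scaling also turned the balance of calls over all genes, of which 60.6% were lower as deposited and 42.4% after the shift.

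**Figure D1:**
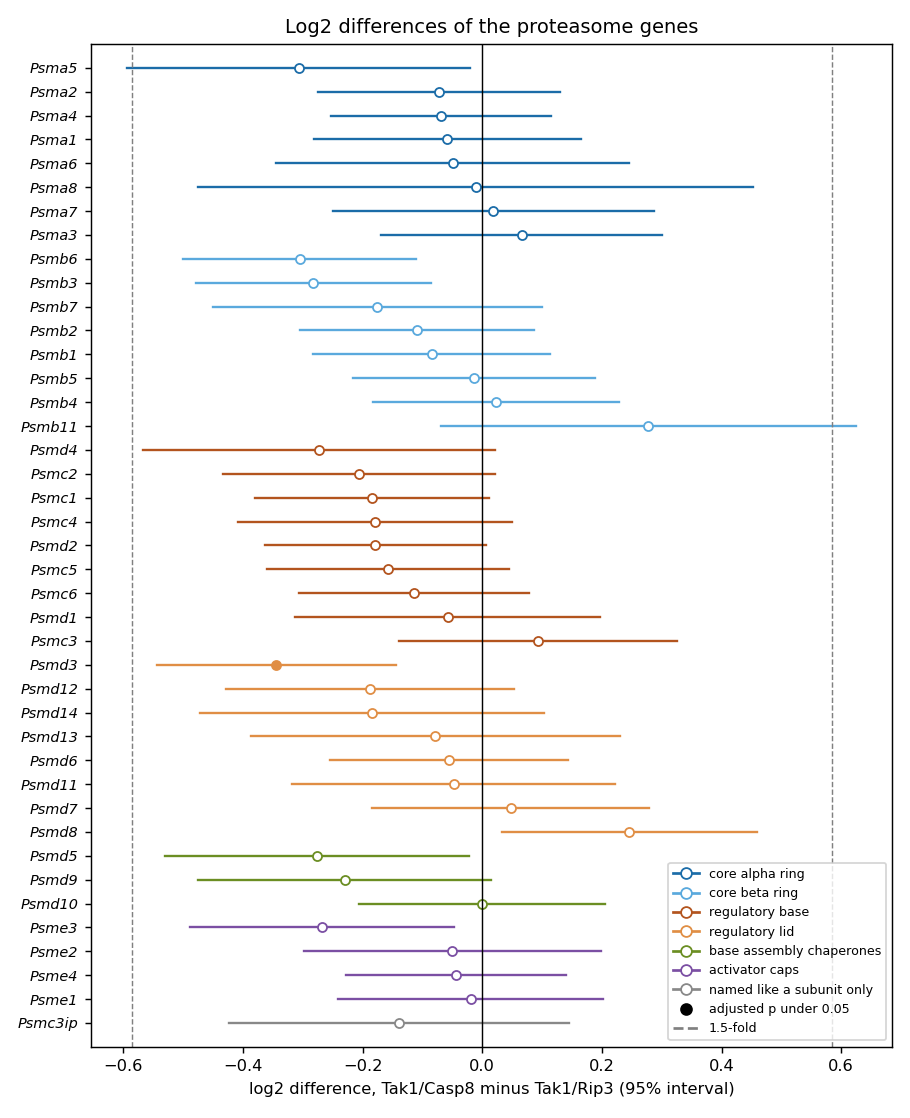
Log2 difference (Tak1/Casp8 minus Tak1/Rip3) of each of the 41 members with its 95% interval from limma, 4 arrays per group, coloured by the particle it belongs to. Filled points passed at an adjusted p under 0.05, dashed lines mark 1.5-fold. Only Psmd3 is filled, and no point lies beyond 1.5-fold.

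The alpha subunits of the core differed little. By limma 0 of the 8 genes passed and 1 had an unadjusted p under 0.05, against 6.69% and 21.1% of all genes. Of the 8 genes 6 were lower, against 47.4% of all genes, and the median difference was -0.05. Psma3 had the most positive difference of the ring. Its values were 11.01, 11.26, 11.39 and 11.37 in the Tak1/Casp8 livers and 11.09, 11.19, 11.25 and 11.24 in the Tak1/Rip3 livers, which overlap (0.07 ± 0.11 SE, limma adjusted p = 0.782). Psma3 turned to -0.0058 with the mean over probe sets and to -0.11 with the brightest. Psma5 had the most negative, with 9.20, 9.29, 9.46 and 9.40 against 9.97, 9.46, 9.70 and 9.45 (-0.31 ± 0.13 SE, limma adjusted p = 0.205). The mean over its 5 probe sets differed by -0.11 and the brightest by -0.13, and 2 of the 5 were higher. Tak1/Rip3 replicates 1 and 3 stood above the other 6 livers for this gene, and replicates 2 and 4 lay beside the highest of the Tak1/Casp8 livers. Psma1, Psma2, Psma4, Psma6 and Psma7 differed by -0.07 to 0.02. Psma8, the germ cell form of an alpha subunit, was dim, at 5.49 to 6.49 where the lower quartile of the arrays over probe sets was 6.47 to 6.52, and it differed by -0.01.

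The 3 catalytic subunits of the standard core did not move as one. Psmb5 carries the chymotrypsin-like site and had the smallest difference of the 3. It was 12.46, 12.61, 12.55 and 12.75 in the Tak1/Casp8 livers against 12.59, 12.66, 12.58 and 12.59 (-0.01 ± 0.09 SE, limma adjusted p = 0.958, 95% interval -0.22 to 0.19). Psmb6, which carries the caspase-like site, was 10.80, 10.93, 10.82 and 10.99 against 11.27, 11.20, 11.17 and 11.13. All 4 of its Tak1/Casp8 values lay below all 4 of the other group, by 0.31 on average, or 1.24-fold, yet it missed the threshold (SE 0.09, limma adjusted p = 0.0690). It passed after quantile normalisation (0.0474), without dim genes (0.0411), with a trended robust variance (0.0331) and with array weights (0.0377). It missed after the shift to 1 median (-0.23, 0.146), with the mean (0.0637) or the brightest probe set (0.0753), and in all 8 fits with 1 array left out (0.0557 to 0.175). Psmb7, with the trypsin-like site, was 10.71, 10.93, 10.84 and 11.27 against 11.19, 11.00, 11.14 and 11.12 (-0.18 ± 0.12 SE, limma adjusted p = 0.469). Its highest value of all 8 livers was that of Tak1/Casp8 replicate 4, and its 3 lowest were those of the other Tak1/Casp8 livers. Differences between these 3 genes were not tested.

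Of the structural beta subunits Psmb3 came nearest to the threshold. It was 12.46, 12.56, 12.51 and 12.62 in the Tak1/Casp8 livers against 12.84, 12.92, 12.71 and 12.80, so the groups did not overlap (-0.28 ± 0.09 SE, limma adjusted p = 0.0900). Psmb3 passed with a trended robust variance (0.0283). It missed after the shift to 1 median (-0.21, 0.191), with the brightest probe set (-0.15, 0.419) and with 1 array left out (0.084 to 0.193). Psmb1, Psmb2 and Psmb4 differed by -0.08, -0.11 and 0.02. Psmb11, the catalytic subunit of the thymus, was as dim as Psma8, at 6.13, 6.06, 6.31 and 6.63 against 5.93, 6.34, 5.75 and 6.01 (0.28 ± 0.16 SE, limma adjusted p = 0.352). In all, 0 of the 8 beta genes passed in limma (2 at an unadjusted p under 0.05, both lower), with a median of -0.10. Over all genes 6.69% passed, and 11.8% were lower at an unadjusted p under 0.05.

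The inducible subunits Psmb8, Psmb9 and Psmb10 replace Psmb5, Psmb6 and Psmb7 in the immunoproteasome, which favours peptides for MHC class I, and are induced by interferon gamma. Psmb10 was 10.11, 10.02, 9.90 and 10.19 in the Tak1/Casp8 livers against 9.77, 9.80, 9.63 and 9.77. The groups did not overlap (0.31 ± 0.10 SE, 1.24-fold), and the limma adjusted p was 0.0850 (0.0362 with each array shifted to 1 median). With the mean over probe sets Psmb10 differed by 0.27 (limma adjusted p = 0.112), and with the brightest by 0.19 (0.580). Psmb8 was 9.02, 9.04, 8.76 and 8.92 against 8.95, 8.63, 8.66 and 8.72 (0.19 ± 0.11 SE, limma adjusted p = 0.343). Psmb9 was 9.26, 9.45, 9.12 and 9.51 against 9.50, 9.50, 9.39 and 9.43 (-0.12 ± 0.11 SE, limma adjusted p = 0.571). With its brightest probe set Psmb9 turned to 0.13 (limma adjusted p = 0.603). None of the 3 passed as deposited, against 6.69% of all genes.

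The base of the regulatory particle leaned to the same side as the members as a whole, of which 80.5% were lower. Of its 9 genes 8 (88.9%) had a lower mean in the Tak1/Casp8 livers, against 47.4% of all genes. In the alpha ring, the beta ring and the lid 75% were lower. In the base 0 passed in limma and 0 had an unadjusted p under 0.05, against 6.69% and 21.1% of all genes. Its median was -0.18 (-0.11 with each array shifted to 1 median, against 0.08 for all genes). The ATPases Psmc1, Psmc2, Psmc4, Psmc5 and Psmc6 differed by -0.18, -0.21, -0.18, -0.16 and -0.11. The sixth ATPase, Psmc3, was the exception, with 9.70, 9.96, 9.97 and 10.05 against 9.84, 9.74, 9.97 and 9.76 (0.09 ± 0.10 SE, limma adjusted p = 0.668). Its probe sets did not share that sign: 12 of 15 were lower in the Tak1/Casp8 livers, the mean over probe sets differed by -0.06 and the brightest by -0.16. The scaffold Psmd2 differed by -0.18, with groups that did not overlap, as in Psmc1, and the scaffold Psmd1 by -0.06. Psmd4, which catches ubiquitin chains, had the most negative difference of the base, with 9.22, 9.48, 9.09 and 9.31 against 9.85, 9.32, 9.58 and 9.44 (-0.27 ± 0.13 SE, limma adjusted p = 0.272). Tak1/Rip3 replicates 1 and 3 were the highest livers for that gene, and the other Tak1/Rip3 livers lay within the range of the Tak1/Casp8 group.

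The lid held both the called gene and the only member with an unadjusted p under 0.05 and a higher value. Psmd3 encodes a scaffold subunit of the lid. It was 9.71, 9.78, 9.78 and 9.54 in the Tak1/Casp8 livers and 10.10, 10.02, 10.01 and 10.05 in the Tak1/Rip3 livers. The 4 Tak1/Rip3 values lay close together (SD 0.04, against 0.11) and above all 4 of the other group. Its mean was 1.27-fold lower in the group without caspase 8 in LPC (-0.34 ± 0.09 SE, 4 arrays each, limma adjusted p = 0.0484). The call sat at the threshold. It was lost when any 1 of the 8 arrays was left out (adjusted p = 0.0656 without Tak1/Rip3 replicate 2 to 0.129 without Tak1/Rip3 replicate 1, difference -0.37 to -0.29), after quantile normalisation (0.0504), after the shift to 1 median (-0.27, 0.106) and with the brightest probe set (-0.14, 0.425). The difference was negative in each of these.

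Psmd8, another lid subunit, ran the other way. It was 12.12, 12.13, 11.89 and 11.95 against 11.90, 11.71, 11.76 and 11.74, and only Tak1/Rip3 replicate 1 reached into the Tak1/Casp8 range (0.25 ± 0.10 SE, limma adjusted p = 0.170). The deubiquitinase Psmd14 and the subunit Psmd12 differed by -0.18 and -0.19, Psmd6, Psmd11 and Psmd13 by -0.06, -0.05 and -0.08, and Psmd7 by 0.05. For Psmd14 Tak1/Rip3 replicate 2 stood apart, at 11.26 where the other 3 of its group were 11.76 to 11.82 and the Tak1/Casp8 livers 11.41 to 11.56. Over the 8 lid genes the median was -0.07. It became -0.18 when Tak1/Rip3 replicate 2 was left out and -0.0027 when replicate 3 of that group was. Of the regulatory subunits that carry other names, Sem1 of the lid was 9.58, 9.45, 9.59 and 9.51 against 9.84, 9.73, 9.69 and 9.94, again without overlap (-0.27 ± 0.09 SE, limma adjusted p = 0.124). The ubiquitin receptor Adrm1 differed by -0.01.

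**Figure D2:**
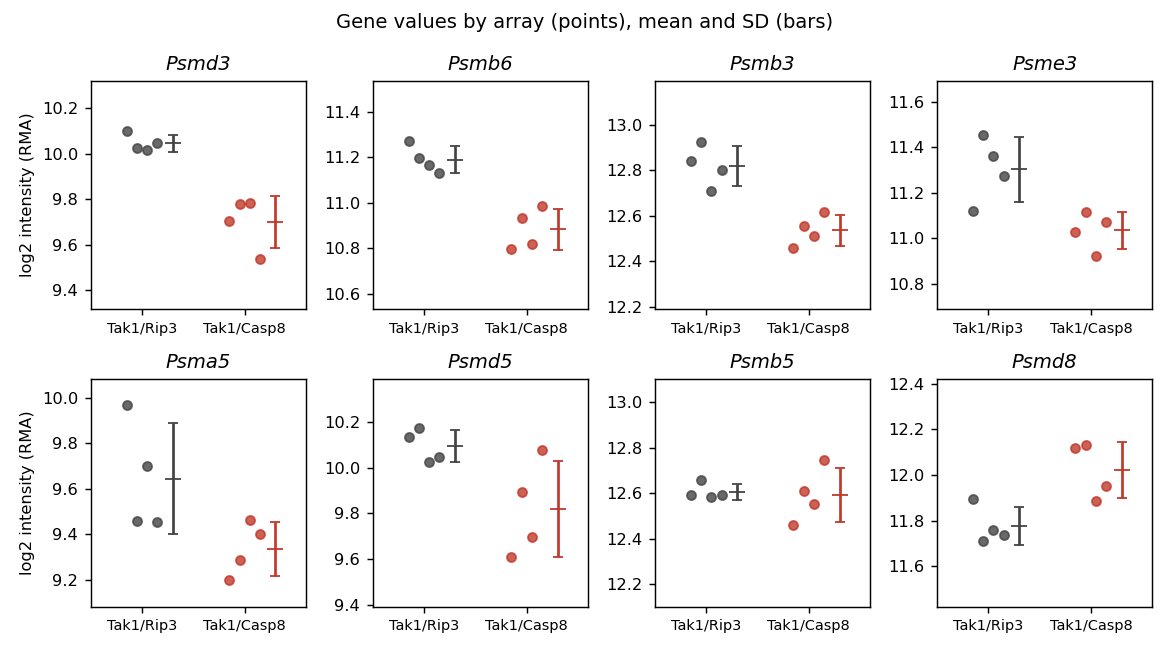
Log2 intensity of 8 members in each array (points, 4 per group), with the mean and SD of the group beside them, all panels spanning the same height of 1 log2 unit. Psmd3, Psmb6, Psmb3 and Psme3 do not overlap between the groups, Psmb5 is level, and Psmd8 lies higher in the Tak1/Casp8 livers.

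Among the chaperones that assemble the base, Psmd5 was 9.61, 9.89, 9.69 and 10.08 in the Tak1/Casp8 livers against 10.13, 10.17, 10.02 and 10.05 (-0.28 ± 0.11 SE, limma adjusted p = 0.200). Tak1/Casp8 replicate 4 lay inside the range of the other group. Psmd9 differed by -0.23 (limma adjusted p = 0.267). Psmd10, or gankyrin, known as an oncoprotein of liver cancer, was 9.88, 9.98, 10.09 and 9.86 against 9.95, 9.84, 10.01 and 10.00. Its means were equal to 2 decimals (9.95 and 9.95), with a 95% interval of the difference from -0.21 to 0.21.

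The caps that can take the place of the regulatory particle were also near level, apart from the nuclear activator Psme3. It was 11.03, 11.12, 10.92 and 11.07 against 11.12, 11.46, 11.36 and 11.27, groups that met at 11.12 without overlapping (-0.27 ± 0.10 SE, limma adjusted p = 0.152). The mean over its probe sets differed by -0.16 and the brightest by -0.0513. The interferon-inducible cap genes Psme1 and Psme2 lie within 10 Mb of Ripk3, the locus knocked out in one group. Psme1 was 10.18, 10.29, 10.23 and 10.51 against 10.31, 10.42, 10.33 and 10.23 (-0.02 ± 0.10 SE, limma adjusted p = 0.941), and Psme2 was 11.08, 11.31, 11.10 and 11.47 against 11.17, 11.41, 11.32 and 11.25 (-0.05 ± 0.11 SE, limma adjusted p = 0.850). Tak1/Casp8 replicate 4 had the highest value of both genes. Psmb5 and Psmb11 are the other members within that distance of Ripk3, and no member lies as near to Casp8 or Map3k7. The large nuclear cap gene Psme4 differed by -0.04. Psmc3ip was dim, at 6.14, 6.18, 6.38 and 6.71 against 6.51, 6.58, 6.41 and 6.46 (-0.14 ± 0.13 SE, limma adjusted p = 0.592).

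The core particle and the regulatory particle were set side by side. The median difference was -0.06 over the 16 core genes and -0.16 over the 17 genes of base and lid, beside 0.01 for all genes. None of the core genes and 1 of the regulatory genes (5.88%) passed, against 6.69% of all genes. The groups did not overlap in 2 (12.5%) and in 3 (17.6%) of them, near the 14.6% of all genes. Leaving out the dim Psma8 and Psmb11 gave -0.07 for the core. Set against each gene's mean over the 8 arrays, the median core gene stood at -0.16, 0.01, -0.06 and 0.07 in Tak1/Casp8 replicates 1 to 4 and at 0.03, 0.06, 0.08 and 0.03 in the Tak1/Rip3 livers. The same quantity for the regulatory particle was -0.15, 0.0042, -0.09 and -0.03 against 0.06, -0.04, 0.12 and 0.03. Both particles were lowest in Tak1/Casp8 replicate 1, then in replicate 3. Tak1/Casp8 replicate 4 lay within the Tak1/Rip3 range for both, and replicate 2 for the regulatory particle. These are descriptions of chosen lists and carry no test.

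Individual livers spread as widely as the groups. The lid stood at -0.16 in Tak1/Rip3 replicate 2, lower than in any Tak1/Casp8 liver, and at 0.18 in Tak1/Rip3 replicate 3, while the beta ring was at 0.12 in Tak1/Casp8 replicate 4, above the whole Tak1/Rip3 group. For the 6 ATPases alone the groups did not overlap, with -0.18, 0.0044, -0.10 and 0.0069 against 0.05, 0.13, 0.11 and 0.01. The median over all genes stood at -0.03 to 0.06 in the same arrays, highest in Tak1/Casp8 replicate 4. With Tak1/Casp8 replicate 4 and Tak1/Rip3 replicate 2 left out together, 36 of the 41 members were lower in the Tak1/Casp8 livers and 0 passed in limma.

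**Figure D3:**
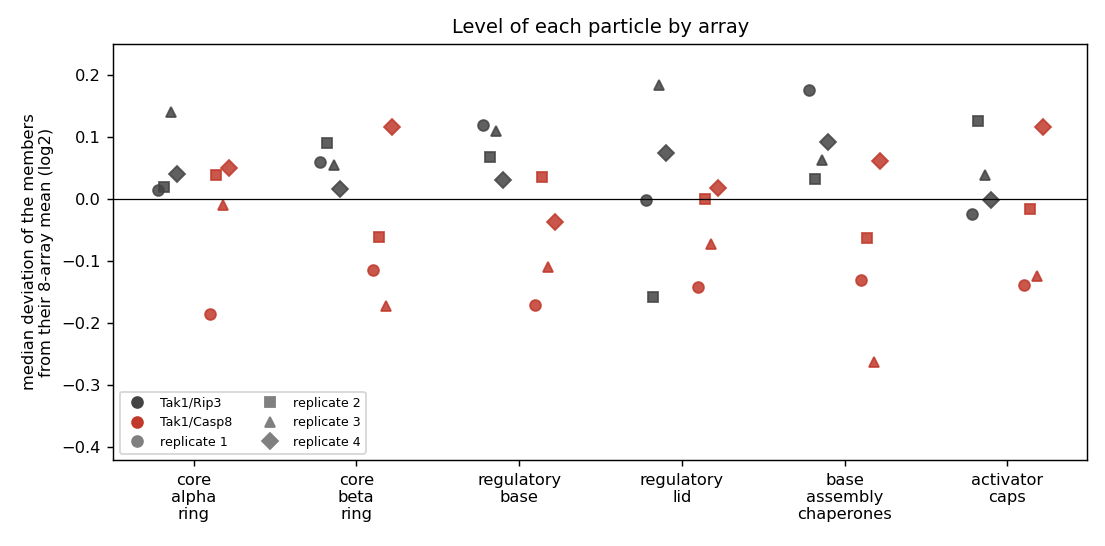
Median deviation of the members of each particle from their own mean over the 8 arrays (log2), 1 symbol per array, shape for the replicate number and colour for the group. Replicates of the 2 groups are not paired. In every particle shown at least 1 Tak1/Casp8 array lies within or above the Tak1/Rip3 range.

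Single probe sets were compared in the same way. Of the 438 probe sets of the members, 306 had a lower mean in the Tak1/Casp8 group and 132 a higher one. In a limma fit over all 206316 probe sets with 1 symbol, 1 of them passed (0.228%), against 1.64% of all probe sets (1.11% lower, 0.532% higher). The called one was a single probe set of Psme4, at 10.83 against 9.71 (1.13 ± 0.14 SE, limma adjusted p = 0.0106), while the 48 probe sets of that gene split into 27 lower and 21 higher. For Psmd3 11 of 12 probe sets were lower, by -0.86 to -0.04, and 1 was higher by 0.19, with a smallest adjusted p of 0.152. The mean over its probe sets gave -0.25 (limma adjusted p = 0.0445), beside -0.34 for the median. For Psmb6 6 of 7 were lower (down to -0.39), and for Psmb3 all 3 (-0.31 to -0.15). All 10 probe sets of Psmd8 were higher, by 0.03 to 0.27, and their mean differed by 0.12, less than the gene value of 0.25. Psmb5 rests on 2 probe sets, at -0.11 and 0.09.

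**Figure D4:**
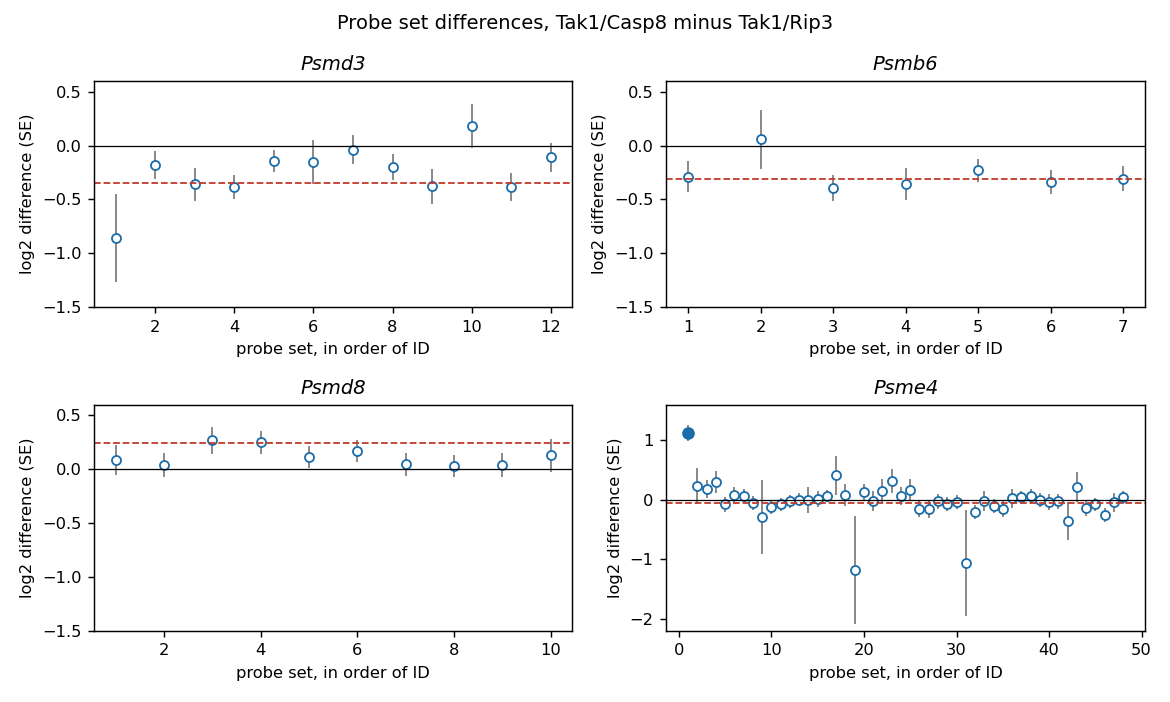
Log2 difference with its SE of each probe set of Psmd3 (12), Psmb6 (7), Psmd8 (10) and Psme4 (48), in order of probe set ID, with a wider vertical scale for Psme4. The dashed line is the difference of the gene value and filled points passed at an adjusted p under 0.05, which only 1 probe set of Psme4 did.

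Proteasome genes are known to be driven together by NRF1 (Nfe2l1) when proteolysis falls short, and many of their promoters hold a CCAAT box, to which NF-Y binds. In the RefSeq promoters of build GRCm38.p6, 34 members had an entry, and Psma8, Psmb1, Psmb2, Psmb7, Psmc3, Psmd3 and Psmd7 did not. The 250 bases before the start were searched on both strands for TGACNNNGC, the core of the site shared by NRF1 and NRF2, and for CCAAT, with 1 promoter per gene. TGACNNNGC was found in 5 of the 34 (14.7%), Psmb5, Psmb6, Psmc6, Psmd9 and Psmd12, and in 10.1% of all 27025 promoters. CCAAT was found in 14 (41.2%) and in 34.5% of all. The member promoters had a median of 57.6% G and C, all promoters 52.0%. The median log2 difference was -0.19 for the 5 members with TGACNNNGC and -0.07 for the 29 without. A match says only that the letters are there. The stretches before the annotated gene start are shown for the 2 beta subunits and the cap gene whose groups did not overlap and for Psmd8, which ran the other way, with CCAAT or its complement in capitals. Psmb6 lies at chr11:70525107-70525323 on the plus strand, Psmb3 at chr11:97703184-97703433 (plus), Psme3 at chr11:101315963-101316212 (plus) and Psmd8 at chr7:29180674-29180923 (minus). The TGACNNNGC match of Psmb6 was counted in the 250 bases searched, but it does not lie wholly before the annotated gene start, where its stretch ends.
Psmb6: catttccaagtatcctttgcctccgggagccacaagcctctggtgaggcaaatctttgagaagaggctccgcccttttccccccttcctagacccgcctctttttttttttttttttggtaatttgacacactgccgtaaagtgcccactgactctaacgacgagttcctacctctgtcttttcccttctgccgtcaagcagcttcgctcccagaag
Psmb3: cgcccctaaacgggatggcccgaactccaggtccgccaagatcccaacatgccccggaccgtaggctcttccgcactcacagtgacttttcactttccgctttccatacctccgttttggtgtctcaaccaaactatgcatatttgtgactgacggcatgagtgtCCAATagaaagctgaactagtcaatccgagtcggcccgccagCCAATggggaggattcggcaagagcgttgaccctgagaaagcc
Psme3: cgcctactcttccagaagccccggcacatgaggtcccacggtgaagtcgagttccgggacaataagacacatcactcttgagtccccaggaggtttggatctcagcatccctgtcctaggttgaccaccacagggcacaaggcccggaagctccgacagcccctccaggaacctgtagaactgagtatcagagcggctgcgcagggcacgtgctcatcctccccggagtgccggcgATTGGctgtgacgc
Psmd8: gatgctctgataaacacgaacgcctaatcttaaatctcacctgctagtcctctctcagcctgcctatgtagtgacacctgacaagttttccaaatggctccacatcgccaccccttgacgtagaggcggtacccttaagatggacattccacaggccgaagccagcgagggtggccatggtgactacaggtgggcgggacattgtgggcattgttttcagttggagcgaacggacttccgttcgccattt

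The other genes of the pathway were as close between the groups. Over all genes 6.69% passed in limma and 21.1% had an unadjusted p under 0.05. Of 5 measured core assembly factors 0 passed in limma (1 at an unadjusted p under 0.05), and the largest difference was that of Psmg2, a chaperone of the alpha ring (-0.29 ± 0.10 SE, limma adjusted p = 0.136). That gene passed with the mean over probe sets (-0.31, adjusted p = 0.0189) and with the brightest one (-0.44, 0.0408). Psmg3, Psmg4 and Pomp, the maturation factor, differed by 0.15, -0.09 and 0.09. Of 9 proteins that bind or restrain the proteasome 0 passed in limma (2 at an unadjusted p under 0.05). The inhibitor Psmf1 was 9.67, 9.42, 9.48 and 9.85 against 10.03, 9.70, 10.20 and 10.01 (-0.38 ± 0.13 SE, limma adjusted p = 0.131). It passed with array weights (-0.48, adjusted p = 0.0246) and when Tak1/Casp8 replicate 4 and Tak1/Rip3 replicate 2 were left out together (-0.55, 0.0207), but the mean over probe sets gave only -0.14 (0.399). The deubiquitinases Usp14 and Uchl5 differed by -0.28 and -0.20, and the scaffold Ecpas by 0.24.

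Genes of the NRF1 pathway were compared next. Of 6 measured 5 had a higher mean in the Tak1/Casp8 livers, with a median of 0.24, whereas 47.4% of all genes were lower, with a median of 0.01. In limma 0 passed and 3 had an unadjusted p under 0.05, against 6.69% and 21.1% of all genes. Nfe2l1 itself was 10.38, 10.54, 10.70 and 10.72 against 10.28, 10.14, 10.37 and 10.44, with only Tak1/Casp8 replicate 1 inside the range of the other group (0.28 ± 0.11 SE, limma adjusted p = 0.175). Nfe2l1 differed by 0.12 with the mean over probe sets and also with the brightest. Its small MAF partners Mafk, Mafg and Maff differed by 0.28, 0.27 and 0.21, but Maff turned to -0.18 with its brightest probe set. The groups did not overlap in Mafk and Mafg, 33.3% of the list, against 14.6% of all genes. Among 8 shuttle receptors and VCP partners 0 passed in limma (2 at an unadjusted p under 0.05). Ubqln1 differed by -0.23, Ubqln2 by 0.21, Ubqln4 by -0.16 and the segregase Vcp by 0.19. With the brightest probe set Ubqln4 turned to 0.18 and Vcp to -0.08, while Ubqln1 and Ubqln2 kept their signs. Ubqln1 passed with the mean over probe sets (-0.27, adjusted p = 0.0458). The ubiquitin-activating enzyme Uba6 differed by 0.24 (limma adjusted p = 0.296).

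Other groups of genes separated the same livers by far more. All 11 measured markers of cell division passed (100%, against 6.69% of all genes), each lower in the Tak1/Casp8 group, with a median of -1.54. The kinases Plk1 and Aurka differed by -1.90 and -1.40, the cyclin Ccna2 by -1.93 and the kinesin Kif20a by -2.13 (limma adjusted p = 0.00257 to 0.00417), but with the brightest probe set Ccna2 differed by only -0.0583 (adjusted p = 0.877) and Kif20a by -0.33 (0.281). The log2 of the summed intensity of that list was 10.89 to 12.15 in the Tak1/Casp8 livers and 12.93 to 13.73 in the others. In bulk tissue fewer cells of a type and less RNA per cell cannot be told apart. The summed markers of stellate cells (2 of 7 called, both lower) were 12.30 to 13.09 against 13.14 to 13.41 and T and NK cell markers (0 of 7 called) 9.52 to 9.63 against 9.64 to 9.75. Those of neutrophils (1 of 6 called, higher), all dim at 4.58 to 7.50 per gene, were 9.03 to 9.39 against 8.61 to 8.98 and those of bile duct cells (1 of 6, higher) 12.99 to 13.74 against 12.39 to 12.96. The bile duct sum rests mostly on its brightest marker, Spp1, which is the called one (0.97). Of the 6 bile duct markers 4 were lower, with a list median of -0.17 and Epcam at -1.05 (limma adjusted p = 0.0651). The B and plasma cell sums overlapped (9.33 to 10.10 against 9.17 to 9.36), but 3 of 5 markers were called, in opposite directions: the B cell genes Cd79a and Ms4a1 were lower (-1.38 and -1.11) and the plasma cell gene Jchain was higher (2.03). Hepatocyte sums overlapped too (16.28 to 16.33 against 16.29 to 16.38), with 1 of 8 called, Serpina1a, which was higher (0.96). No marker was called (0 of 8, 0 of 6 and 0 of 4) for Kupffer cells (13.74 to 14.17 against 13.66 to 14.21), endothelium (13.11 to 13.20 against 12.90 to 13.12) and erythroid cells (9.52 to 10.65 against 9.39 to 10.82), whose sums overlapped. The part of these lists in the lower value of Psmd3 was not tested.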

How the data were processed

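Liver RNA of 8 mice was amplified, biotin-labelled and hybridised to 1 array each, per the labels' protocols. The authors deposited log2 intensity values, and the submitters' processing notes name RMA without a version. RMA aligns the arrays, so a shift shared by most genes is largely removed. No filter on dim genes was set.

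Of 223771 probe sets, the platform annotation gives 1 symbol to 206316, several to 3734 (3 of them with a member) and none to 13721. Old symbols (2571) were updated through a RefSeq table of GRCm38.p6, in which 19456 of the 19560 symbols were found. The gene value was the median over probe sets.

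The genotype label set the groups. No label pairs the mice or gives a batch, so genotype and handling cannot be told apart. The test was limma 3.58.1 in R 4.3.3 (lmFit and eBayes, two-sided), with Benjamini-Hochberg adjustment over all 19560 genes, called under 0.05, and was tested on simulated data. Figures used matplotlib 3.10.9 under Python 3.11.15. Alternatives changed the scaling, probe set summary, dim gene filter, variance model, array weights, threshold, symbols, genes near the targeted loci and arrays.

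The members and lists were chosen with earlier results of these data known. Array values were given for called members, catalytic and inducible subunits, the extremes of each particle and members within 10 Mb of a targeted gene. Of each companion list up to 4 genes with the smallest adjusted p were named. Array values of Psmb3, Psmd14, Sem1, Psmf1 and Nfe2l1 were added after they were seen.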

Additional observations from a re-analysis of the deposited data

Results flagged for a closer look

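In 6 of 158 groups of 4 arrays checked, 1 array lay far from the other 3 by Dixon's test (critical value 0.829), and chance alone flags about 1 in 20. Psmd14 was 11.26 in Tak1/Rip3 replicate 2, where the other 3 were 11.76 to 11.82. In the same array Psmb5 was 12.66 against 12.58 to 12.59. Psma7 was 9.38 in Tak1/Casp8 replicate 1 against 9.64 to 9.67. Outside the subunits, Ecpas was 10.22 in Tak1/Rip3 replicate 3 against 9.88 to 9.91, Ripk3 was 6.36 in Tak1/Rip3 replicate 1 against 7.04 to 7.18, and Kif20a was 6.44 in Tak1/Casp8 replicate 3 against 7.70 to 7.85.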

How the results depend on the processing

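The precision is limited by 4 arrays a group and by gene values that rest on 2 to 48 probe sets. All genes called (1308) became 759 with the brightest probe set, 2130 at an adjusted p under 0.10, 406 under 0.01, and 706 to 1347 with 1 array left out. The count of members called lower (1) became 0 with each array shifted to 1 median, with the brightest probe set, under 0.01 and, added after seeing the data, without both of the least correlated arrays. It became 2 without dim genes and with array weights, 3 with a trended robust variance and under 0.10, and was 0 in each of the 8 fits with 1 array left out. Quantile normalisation called Psmb6 in place of Psmd3. Of calls over all genes 60.6% were lower, 53.4% after quantile normalisation and 42.4% with each array shifted to 1 median. That shift took the median of all members to -0.0070, of the core to 0.0077, of the regulatory particle to -0.0859 and of its base to -0.11. It moved all genes alike, to a median of 0.08. The caps stood at -0.16 without genes near the targeted loci. With 1 array left out the median of all members ran from -0.13 to -0.07. Ripk3 turned to -0.0357 with its brightest probe set. The cause of these shifts was not tested. No paired analysis was possible because the labels give the mice no shared replicate numbers.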

Other observations

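The 4 members with the smallest unadjusted p, Psmd3, Psmb6, Psmb3 and Psme3, all lie on chromosome 11, which was seen after their values were known. Psmb3, Psmd3 and Psme3 lie within 4 Mb of each other in the RefSeq table. All 9 members on that chromosome, Psmc3ip among them, had a lower mean in the Tak1/Casp8 livers, with a median of -0.19. The groups did not overlap in 4 of the 9 (44.4%), against 15.3% of all genes on chromosome 11. The 32 members elsewhere had a median of -0.06 and no overlap in 2 (6.25%), against 14.6% of all genes elsewhere. Over all 1514 genes of chromosome 11 the median was -0.0061, 50.9% were lower and 6.41% were called, and over the genes of the other chromosomes the median was 0.01 and 6.71% were called. No test was made of the grouping.

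Beside the inducible Psmb10, which lay above its other group without overlap, its partner subunit in the standard core, Psmb7, lay lower in 3 of 4 Tak1/Casp8 livers. The remaining Tak1/Casp8 liver, replicate 4, had the highest Psmb7 value of all (11.27). The other pairs did not show this: Psmb9 and Psmb6 both had a lower mean (-0.12 and -0.31), and Psmb8 differed by 0.19 with Psmb5 at -0.01. The pair was picked after its values were seen, and the ratio of Psmb10 to Psmb7 was not tested.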
